A study of Homo sapiens and Mus musculus with 19 samples.

Results

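Genes for proteins of the red-cell membrane were followed in chromatin-associated RNA (caRNA) of K562, a human leukaemia line that expresses erythroid genes. The 8 genes were taken from a fixed list of erythroid membrane proteins: the glycophorin genes GYPB, GYPC and GYPE, the transport genes SLC4A1 and RHAG, and the membrane-skeleton genes ANK1, SPTB and EPB41. All 8 were among the 58721 genes of the count tables, and all 8 passed the filter on low counts with 26023 genes in all. The study examined how loss of TET2, an enzyme that oxidises 5-methylcytosine, and depletion of MBD6, a protein with a methyl-CpG-binding domain, changed caRNA in leukaemia cells. The 12 libraries formed 4 groups of 3: TET2 WT K562 with shControl, TET2 WT K562 with shMBD6, TET2 KO K562 with shControl and TET2 KO K562 with shMBD6. All cells carried a lentiviral hairpin and were selected with puromycin, so that the control groups had been transduced and selected too. Per the study's methods WT and TET2 KO K562 cells were gifts from another laboratory, WT K562 was also obtained from ATCC, and each hairpin was carried by 1 plasmid. The number of clones behind the KO line and the separation of the 3 libraries of a group into cultures were not given in the labels, so that p-values measure the spread between these libraries.

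The red-cell membrane is a lipid bilayer held by a protein mesh. Spectrin tetramers form the mesh, which is tied to the bilayer through ankyrin, by way of the anion exchanger band 3 and the Rh complex, and through protein 4.1, by way of glycophorin C. Glycophorins are sialic-acid-rich surface proteins that carry blood-group antigens, and most of these genes are switched on during erythroid maturation under GATA-binding and CACC-box-binding factors.

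RefSeq start sites (GRCh38.p14) were on hand for 6 of the 8 genes, GYPB, GYPC, GYPE, RHAG, SPTB and EPB41, at 9 starts. The 250 bases upstream of 5 of these starts are shown because GYPB, GYPE, RHAG and SPTB were highest in WT shControl and lowest in KO shControl, and EPB41 was lowest in WT shControl. Capitals mark each run of the letters GATA with A or T before and A or G after it, the core recognised by GATA factors, on either strand. Each sequence reads 5′ to 3′ on the strand of the gene and ends at the base before the start.
GYPB (chr4:144019381-144019630, minus strand): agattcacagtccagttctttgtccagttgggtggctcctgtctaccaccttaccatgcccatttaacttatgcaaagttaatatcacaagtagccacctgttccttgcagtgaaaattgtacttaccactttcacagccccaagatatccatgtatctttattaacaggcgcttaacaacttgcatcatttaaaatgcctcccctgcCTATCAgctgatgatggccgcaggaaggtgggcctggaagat
GYPE (chr4:143905560-143905809, minus strand): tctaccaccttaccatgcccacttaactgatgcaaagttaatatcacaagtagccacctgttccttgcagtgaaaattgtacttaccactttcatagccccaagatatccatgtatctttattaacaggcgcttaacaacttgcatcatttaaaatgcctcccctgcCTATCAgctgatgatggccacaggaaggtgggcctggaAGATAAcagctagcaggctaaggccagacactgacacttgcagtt
RHAG (chr6:49636840-49637089, minus strand): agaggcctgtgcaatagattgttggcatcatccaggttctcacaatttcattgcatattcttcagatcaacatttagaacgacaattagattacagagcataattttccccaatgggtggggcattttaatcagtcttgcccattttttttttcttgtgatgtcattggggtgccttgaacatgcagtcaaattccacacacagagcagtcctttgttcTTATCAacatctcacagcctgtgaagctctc
SPTB (chr14:64879908-64880157, minus strand): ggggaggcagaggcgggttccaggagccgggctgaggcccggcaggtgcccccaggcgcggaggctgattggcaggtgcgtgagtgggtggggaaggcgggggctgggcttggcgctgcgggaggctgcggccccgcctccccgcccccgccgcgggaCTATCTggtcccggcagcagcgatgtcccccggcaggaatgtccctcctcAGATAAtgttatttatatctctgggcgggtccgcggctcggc
EPB41 (chr1:28886850-28887099, plus strand): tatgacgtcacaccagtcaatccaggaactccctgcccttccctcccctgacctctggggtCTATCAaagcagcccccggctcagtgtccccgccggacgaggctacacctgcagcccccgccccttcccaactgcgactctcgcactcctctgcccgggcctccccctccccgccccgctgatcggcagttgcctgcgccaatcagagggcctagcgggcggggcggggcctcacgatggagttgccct
A match was found at 7 of the 9 starts, against 22.3% of the 35116 upstream windows of the table. These 7 are not independent, since 2 of them are overlapping windows of GYPB that share a match and GYPE is a near copy of GYPB. The starts without a match were a further start of SPTB (chr14:64823381-64823630) and a further start of EPB41 (chr1:28914319-28914568), neither of them shown. The CACC-box letters CCNCNCCC, on either strand, were found at 6 of the 9 starts and in 53.4% of all windows. At the starts shown, GATA letters began at position -42 from the start for GYPB and at -83 and -45 for GYPE. They began at -31 for RHAG and at -92 and -42 for SPTB. The positions of matches over all windows were not counted, so that these places have no share beside them. The EPB41 start shown held a match at -189 and 6 matches of the CACC-box letters. GYPB and GYPE are neighbours and close copies of one another, and their windows were identical at 205 of 209 aligned bases, with 4 mismatches. A match is a description of the letters only.

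The 12 libraries held 52158403 to 102070223 reads assigned to genes, and each of the 8 genes had between 49 and 130116 counts in a library. Values are CPM (depth-scaled counts, after TMM scaling), and each fold or log2 change is measured against the rest of the transcriptome in those libraries. MBD6, the target of the hairpin, stood at 43.3, 42.7 and 38.6 CPM in TET2 WT shControl and at 31.0, 25.7 and 27.2 CPM in TET2 WT shMBD6. In TET2 KO it stood at 30.6, 30.8 and 29.4 CPM in the libraries labelled shControl and at 30.6, 38.3 and 34.2 CPM in the libraries labelled shMBD6. MBD6 was thus lower with the hairpin in TET2 WT (log2 change -0.57, SE 0.08, adjusted p = 1.83e-07). It was not lower in TET2 KO (0.19, SE 0.08, adjusted p = 0.0574), so that its caRNA level did not follow the labels of the KO pair. MBD6 in the libraries labelled KO shControl was already below WT shControl (-0.46, SE 0.08). Whole-cell mRNA and protein of MBD6 were not measured in these caRNA libraries, so that the labels of the KO pair are not shown to be wrong. The directions of the hairpin within KO, of the interaction and of KO against WT within 1 hairpin rest on these labels, and the comparison within TET2 WT does not. Each of the 8 genes lay on the same side of WT shControl in both KO groups without overlap, and GYPB and SLC4A1 were lower in all KO libraries than in all WT libraries, whichever way the KO pair is labelled. The share of all genes with groups so separated was not counted, so that the lack of overlap sets none of the 8 apart. TET2 itself was at 118 to 124 CPM in WT shControl, 127 to 131 in the libraries labelled KO shControl and at a mean of 94.8 in those labelled KO shMBD6, and reads summed over a whole gene do not check a small edit. Erythroid markers summed to 677 to 694 CPM in WT shControl, 436 to 444 in WT shMBD6, 390 to 396 in KO shControl and 550 to 559 in KO shMBD6, with 2 of 10 (HBG2 and HBE1) at 0 in every library and 5 of 10 below 1 CPM on average. TFRC, the transferrin receptor, made up most of this sum (578, 356, 318 and 470 CPM in the same order), while ALAS2, the erythroid enzyme of haem synthesis, ran otherwise (25.3, 37.4, 31.2 and 21.9 CPM). Myeloid markers summed to 43.2 to 46.3, 63.7 to 67.1, 81.8 to 87.0 and 77.1 to 81.2 CPM in the same order, with 1 of 7 (ELANE) at 0. Megakaryocyte markers (8 genes) summed to 49.9 to 58.4, 41.5 to 46.4, 29.8 to 35.2 and 28.7 to 32.9 CPM. Of these, 6 of 8 were below 1 CPM on average. ITGA2B averaged 40.7, 40.8, 32.3 and 25.8 CPM in the same order, and TUBB1 13.1, 2.14, 0.533 and 4.11 CPM. The 8 lymphoid markers summed to 2.99 to 8.04 CPM in any library, although the labels call the cells lymphoblasts. PTPRC, the pan-leucocyte gene CD45, was at 67.5 to 96.5 CPM in the WT libraries and at 0.0523 to 0.257 CPM in the KO libraries. Mitochondrial reads made up 0.0220% to 0.0238% of gene counts in WT shControl and 0.0233% to 0.0273% in KO shMBD6, against 0.0405% to 0.0499% in WT shMBD6 and 0.0483% to 0.0540% in KO shControl. Ambiguous reads split the groups the same way, at 5.05% to 5.24% and 4.96% to 5.10% against 4.63% to 4.74% and 4.70% to 4.805%. The part of these differences in the results on the 8 genes was not tested, and fewer cells of a kind and less RNA per cell cannot be told apart in bulk libraries.

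Set against gene length, the 8 genes spanned a wide range of levels. Per kb of gene span, the order in TET2 WT shControl was GYPC (5.69 ± 0.165 CPM per kb, SD, n = 3), RHAG (5.28 ± 0.0571), EPB41 (4.53 ± 0.0417), ANK1 (3.31 ± 0.0682), GYPE (2.16 ± 0.0638), GYPB (1.51 ± 0.0624), SPTB (1.38 ± 0.0141) and SLC4A1 (0.291 ± 0.0241). No 2 neighbours in this order overlapped in their 3 libraries. Per kb of exons ANK1 came first at 73.3 ± 1.51 CPM per kb, and GYPC (63.9 ± 1.86) and RHAG (63.5 ± 0.687) did not differ beyond their spread. The last 4 places were the same on both lengths. Over the 12 libraries the mean level per kb of span placed EPB41 and GYPC at the 97.4th and 97.3rd percentile of 25837 genes, RHAG at 95.7, ANK1 at 90.8, GYPE at 84.6, GYPB at 76.3, SPTB at 73.3 and SLC4A1 at 51.9. The 416 olfactory receptor genes, which serve in olfactory neurons, gave a background of 0.0618 CPM per kb of span in WT shControl, 0.0798 in WT shMBD6, 0.105 in KO shControl and 0.0755 in KO shMBD6. In WT shMBD6 and KO shControl EPB41 came first (5.80 ± 0.0176 and 5.23 ± 0.0681 CPM per kb), and in KO shMBD6 GYPC came first again (4.85 ± 0.0971). SLC4A1 lay above this background in both WT groups and, at 0.0444 ± 0.0144 and 0.0682 ± 0.0365 CPM per kb, below it on average in both KO groups, so that its KO level was not told apart from background.

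**Figure D1:**
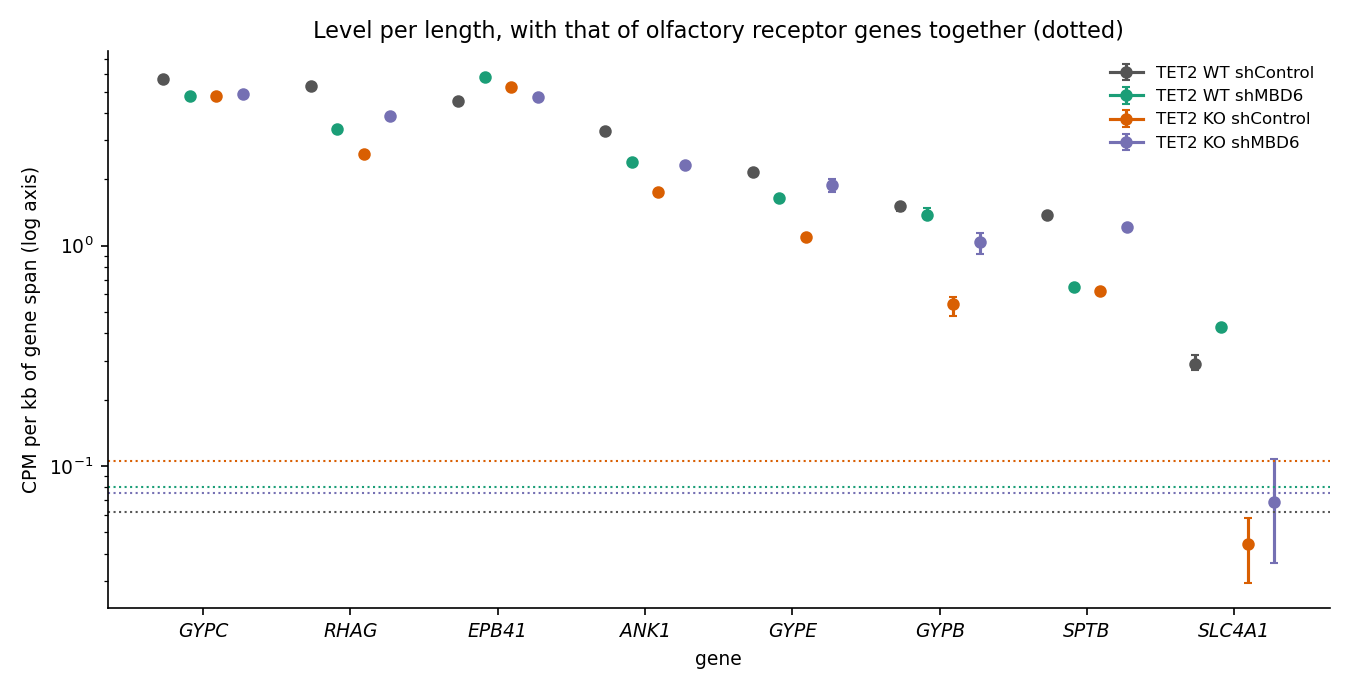
CPM per kb of gene span (log axis) of the 8 genes in the 4 groups; points are means of 3 libraries, bars run from the lowest to the highest library, and dotted lines give the level of 416 olfactory receptor genes summed in each group, in the colour of the group. Only the 2 KO points of SLC4A1 reach the dotted lines.

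The genes differed in their order of groups. GYPE, SPTB and RHAG were highest in WT shControl, next in KO shMBD6, then in WT shMBD6 and lowest in KO shControl; ANK1 and GYPB shared the highest and lowest group with WT shMBD6 in second place. EPB41 ran the other way, with its lowest level in WT shControl. GYPC varied by a factor of 1.20 between its highest and lowest group mean, and SLC4A1 by 9.57, split by genotype.

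**Figure D2:**
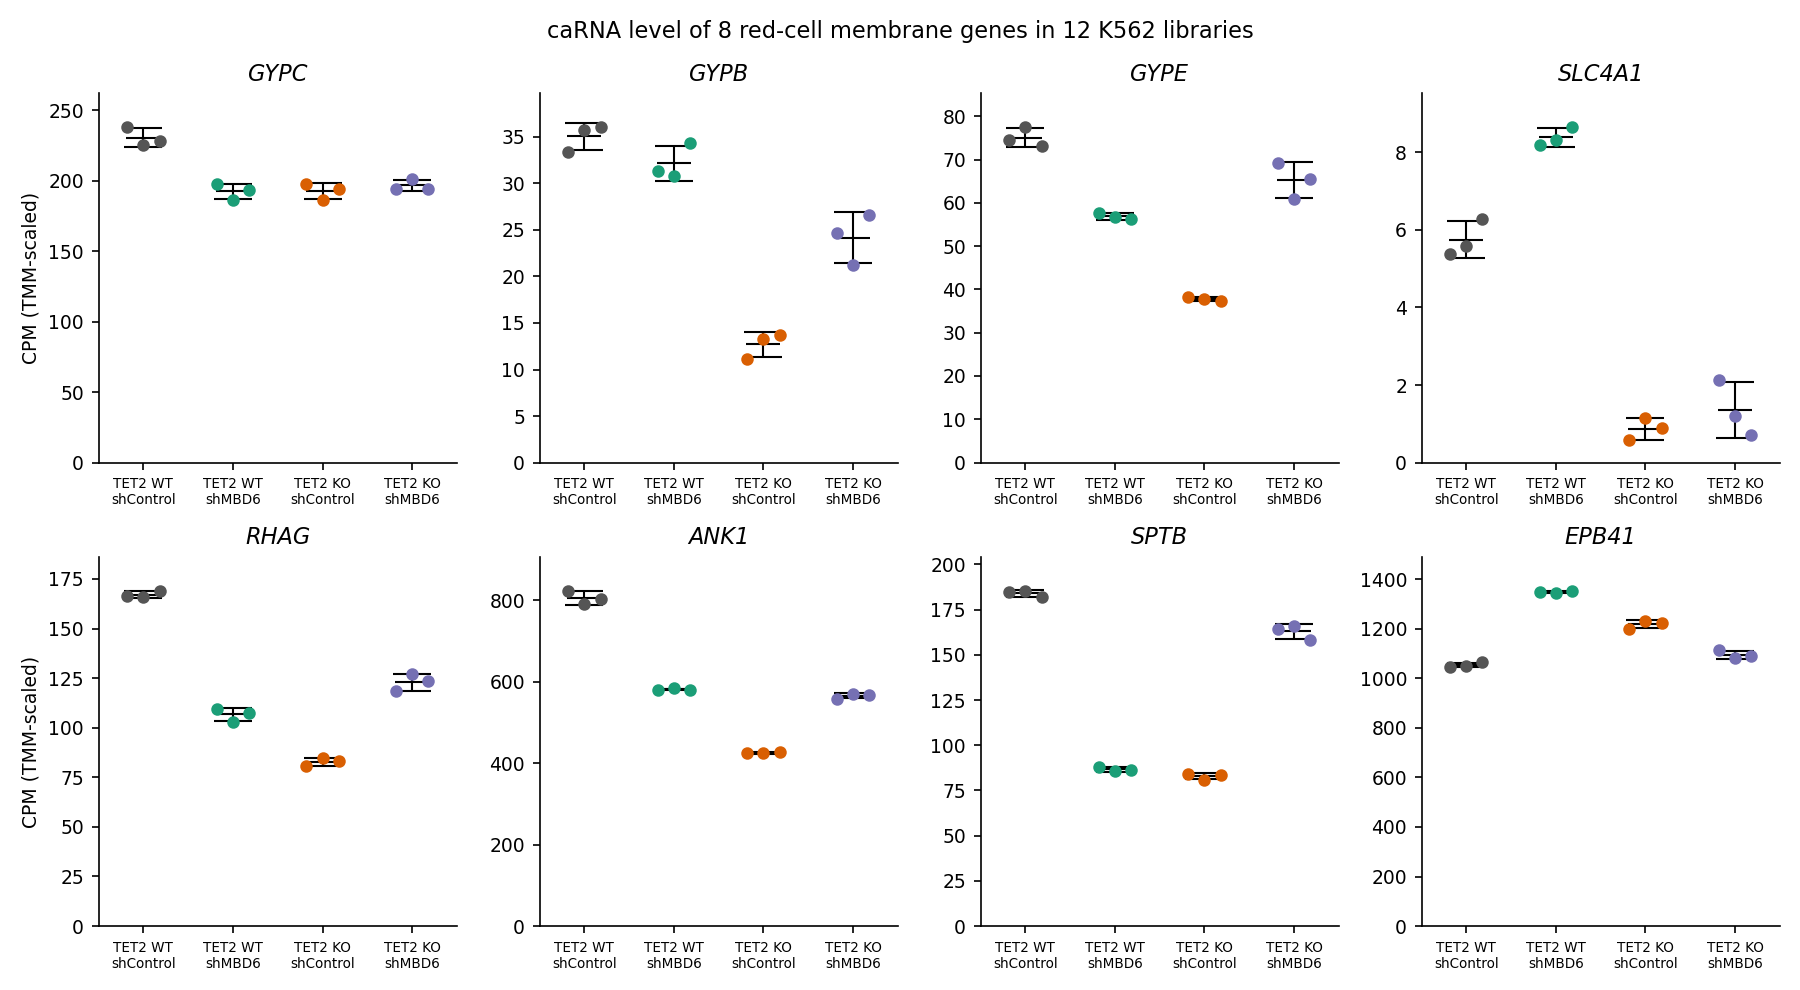
CPM (TMM-scaled, axes from 0) of each gene in the 12 libraries; coloured points are libraries, and black marks give the mean and SD of 3 libraries. SPTB sits at 182 to 186 CPM in WT shControl and at 81.0 to 88.1 in both WT shMBD6 and KO shControl, while EPB41 sits lowest in WT shControl.

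GYPB, which encodes glycophorin B and carries the S and s antigens (ENSG00000250361, GRCh38 chr4:143996104-144019380, minus strand), was measured at 33.4, 35.7 and 36.1 CPM in WT shControl, 31.4, 30.8 and 34.3 in WT shMBD6, 11.1, 13.3 and 13.7 in KO shControl and 24.7, 21.2 and 26.6 in KO shMBD6. All KO libraries lay below all WT libraries. GYPE, the gene for glycophorin E next to it (ENSG00000197465, chr4:143870864-143905563, minus strand), was at 74.5, 77.5 and 73.2 CPM in WT shControl, 57.8, 56.7 and 56.2 in WT shMBD6, 38.4, 37.7 and 37.4 in KO shControl and 69.3, 60.9 and 65.6 in KO shMBD6. None of its groups overlapped. These genes are close copies, and 38.7% of the 50-base windows of GYPB and 31.2% of those of GYPE occurred exactly elsewhere in the gene cluster; reads with more than 1 alignment were set aside in the tables, so that both are undercounted. The ratio of GYPB to GYPE counts was 0.448 to 0.493 in WT shControl, 0.543 to 0.611 in WT shMBD6, 0.290 to 0.366 in KO shControl and 0.348 to 0.406 in KO shMBD6, so that the copies did not move in step. Both genes lie across a transcript on the opposite strand, ENSG00000251600, with 11514 counts over the 12 libraries against 24836 for GYPB and 55642 for GYPE.

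GYPC encodes glycophorin C, the bilayer anchor of protein 4.1, and lies apart from the other glycophorins (ENSG00000136732, chr2:126656133-126696667, plus strand). Its libraries gave 238, 225 and 228 CPM in WT shControl, 198, 187 and 193 in WT shMBD6, 198, 187 and 195 in KO shControl and 194, 201 and 195 in KO shMBD6. WT shControl stood above the other 3 groups, which overlapped with one another.

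SLC4A1 encodes band 3, the chloride-bicarbonate exchanger and the most abundant protein of the mature red-cell membrane (ENSG00000004939, chr17:44248390-44268141, minus strand). It was at 5.37, 5.58 and 6.28 CPM in WT shControl, 8.18, 8.32 and 8.65 in WT shMBD6, 0.584, 1.15 and 0.896 in KO shControl and 2.13, 1.20 and 0.714 in KO shMBD6, from 49 to 140 counts in a KO library and 388 to 789 in a WT library. The KO groups overlapped with each other and lay below every WT library. RHAG encodes the Rh-associated glycoprotein, a gas and ammonium channel that brings the Rh proteins to the surface (ENSG00000112077, chr6:49605175-49636839, minus strand). It was at 166, 166 and 169 CPM in WT shControl, 109, 103 and 108 in WT shMBD6, 80.6, 84.8 and 83.1 in KO shControl and 118, 127 and 123 in KO shMBD6, with no overlap between any groups.

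ANK1 encodes ankyrin-1, the link between band 3 and spectrin (ENSG00000029534, chr8:41653220-41896741, minus strand). It was at 824, 791 and 802 CPM in WT shControl, 580, 583 and 581 in WT shMBD6, 424, 424 and 427 in KO shControl and 559, 570 and 568 in KO shMBD6. SPTB encodes erythroid beta-spectrin (ENSG00000070182, chr14:64746283-64879907, minus strand) and was at 185, 186 and 182 CPM in WT shControl, 88.1, 85.9 and 86.1 in WT shMBD6, 84.3, 81.0 and 83.7 in KO shControl and 164, 166 and 158 in KO shMBD6. In both genes the groups were tight and did not overlap, and SPTB was separated into a high pair and a low pair, the same pairs that the shares of mitochondrial and ambiguous reads set apart. EPB41 encodes protein 4.1R, which joins spectrin and actin to glycophorin C and is used in many tissues (ENSG00000159023, chr1:28887091-29120046, plus strand). Its levels were 1047, 1050 and 1065 CPM in WT shControl, 1350, 1346 and 1355 in WT shMBD6, 1200, 1230 and 1225 in KO shControl and 1114, 1080 and 1091 in KO shMBD6, again without overlap.

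The 5 comparisons share groups with one another, so that their values are given side by side and none supports another. TET2 KO and WT cells with the control hairpin were compared first, as the libraries labelled KO shControl against WT shControl. Genotype and cell line go together in these libraries, so that loss of TET2 and other differences between the lines cannot be told apart. All 8 genes were called at an adjusted p under 0.05 (edgeR quasi-likelihood test, Benjamini-Hochberg over 26023 genes), 7 lower and EPB41 higher in KO. The background was high: 45.8% of all genes tested were called in this comparison (23.5% higher and 22.3% lower), and 71.0% of the 11056 genes with a mean of at least 5 CPM (38.2% higher and 32.8% lower). With total gene counts as the scaling, 35.3% of all calls were higher in place of 51.4%. The median log2 change of the 8 genes was -1.001, against -0.05 over all genes tested. SLC4A1 fell by 2.73 on the log2 scale (SE 0.27, adjusted p = 2.22e-10), to a KO level at background. GYPB fell by 1.47 (SE 0.09, adjusted p = 6.81e-16), a 2.77-fold lower level, and GYPE fell by 0.99 (SE 0.05, adjusted p = 1.92e-17). Among the skeleton genes SPTB fell by 1.15 (SE 0.04, adjusted p = 7.36e-24) and ANK1 fell by 0.92 (SE 0.02, adjusted p = 4.79e-26). RHAG fell by 1.01 (SE 0.04, adjusted p = 2.33e-21), while GYPC fell by only 0.26 (SE 0.03, adjusted p = 5.79e-08). EPB41 rose by 0.21 (SE 0.02, adjusted p = 2.40e-10), and with libraries scaled by total gene counts, which moved the median of all genes by -0.18, it was at 0.03 (adjusted p = 0.175) and no longer called.

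Depletion of MBD6 in TET2 WT cells, the pair whose MBD6 level followed its label, was compared next. It called 6 of the 8 genes, 5 lower and 1 higher, against 42.5% of all genes tested (17.7% higher and 24.7% lower) and 72.2% of those with a mean of at least 5 CPM (19.5% higher and 52.7% lower). The median log2 change of the 8 was -0.33, against 0.10 over all genes and -0.18 over those of at least 5 CPM. Of all calls 41.8% were higher, and 55.2% with DESeq2 size factors. SPTB fell by 1.09 (SE 0.04, adjusted p = 2.65e-22), a 2.12-fold lower level. RHAG fell by 0.65 (SE 0.04, adjusted p = 1.20e-15), ANK1 fell by 0.47 (SE 0.02, adjusted p = 2.37e-17), GYPE fell by 0.40 (SE 0.05, adjusted p = 5.84e-08) and GYPC fell by 0.26 (SE 0.03, adjusted p = 6.08e-08). EPB41 rose by 0.36 (SE 0.02, adjusted p = 1.05e-15). GYPB was at -0.13 (SE 0.08, adjusted p = 0.239), with a 95% interval of -0.29 to 0.04. SLC4A1 was at 0.54 (SE 0.24, adjusted p = 0.0645) although its 2 groups did not overlap. It passed the test when only these 2 groups were fitted (0.54, adjusted p = 0.000734), when KO shMBD6 replicate 1 (adjusted p = 0.0158) or 3 (adjusted p = 0.0256) was left out of the fit, and under 5 other settings, so that this pair of groups alone called 7 of the 8 genes.

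Within TET2 KO, the libraries labelled shMBD6 stood mostly above those labelled shControl. The test called 6 of the 8 genes, 5 higher and 1 lower, against 36.4% of all genes tested (15.7% higher and 20.6% lower) and 62.7% of those with a mean of at least 5 CPM (31.7% higher and 31.0% lower). The median of the 8 was 0.60, against -0.07 over all genes. Of all calls 43.3% were higher, and 59.9% with total gene counts, where 7 of the 8 genes were called higher and 0 lower. SPTB rose by 0.97 (SE 0.04, adjusted p = 5.27e-21), GYPB by 0.93 (SE 0.09, adjusted p = 1.42e-10), GYPE by 0.79 (SE 0.05, adjusted p = 2.52e-14), RHAG by 0.57 (SE 0.04, adjusted p = 3.88e-14) and ANK1 by 0.41 (SE 0.02, adjusted p = 8.34e-16). EPB41 fell by 0.15 (SE 0.02, adjusted p = 2.34e-07) and was at -0.03 with total gene counts (adjusted p = 0.257), a scaling that moved the median of all genes by 0.12. GYPC was at 0.03 (SE 0.03, adjusted p = 0.557), with an interval of -0.04 to 0.09, and at 0.15 with total gene counts (adjusted p = 0.000311). SLC4A1 was at 0.63 (SE 0.28, adjusted p = 0.0761), with an interval of 0.09 to 1.18 over libraries at background. Its value was 0.94 without KO shMBD6 replicate 3 (adjusted p = 0.00346) and 0.86 without KO shControl replicate 2 (adjusted p = 0.0302), and the lowest value with 1 library left out was 0.14.

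**Figure D3:**
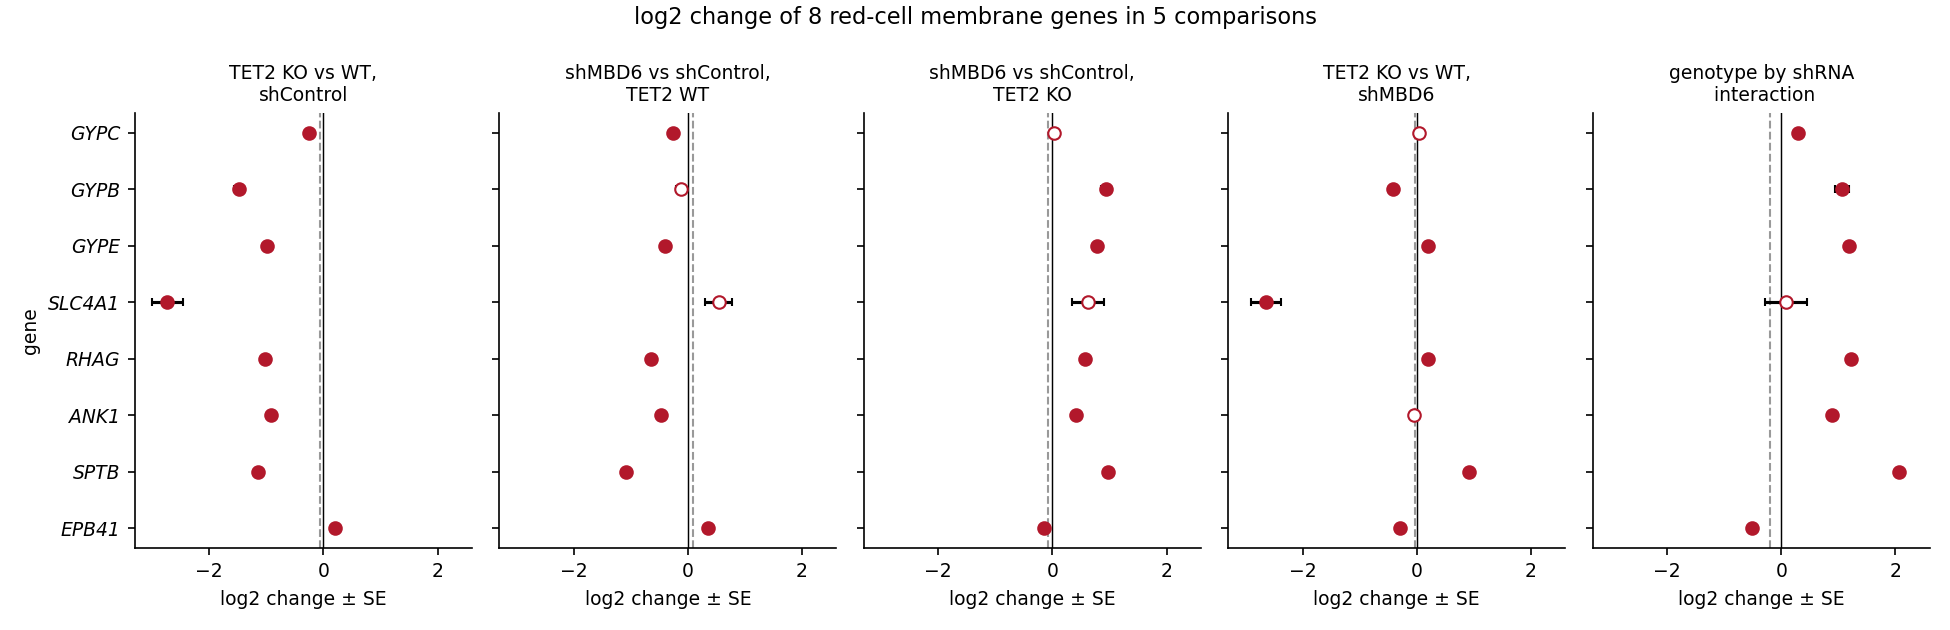
log2 change ± SE of the 8 genes in the 4 comparisons of groups and in the interaction; filled points passed an adjusted p of 0.05, open points did not, and the dashed grey line is the median of all genes tested. Most genes lie left of 0 in the first 2 panels and right of 0 in the third and the fifth, and EPB41 lies opposite to them.

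The libraries labelled KO shMBD6 were also compared with WT shMBD6. The test called 6 of the 8 genes, 3 in each direction, against 58.6% of all genes tested (30.1% higher and 28.5% lower) and 76.5% of those with a mean of at least 5 CPM (60.0% higher and 16.5% lower). The median of the 8 was -0.00, against -0.03 over all genes and 0.26 over those of at least 5 CPM. SLC4A1 fell by 2.65 (SE 0.26, adjusted p = 2.14e-10) and SPTB rose by 0.91 (SE 0.04, adjusted p = 9.69e-21), a 1.88-fold higher level. GYPB fell by 0.41 (SE 0.08, adjusted p = 0.000109) and EPB41 by 0.30 (SE 0.02, adjusted p = 3.38e-14). GYPE rose by 0.20 (SE 0.05, adjusted p = 0.00132) and RHAG by 0.20 (SE 0.04, adjusted p = 2.49e-05), and both lost the call with total gene counts (0.05 and 0.06) and with DESeq2 size factors (both 0.08). GYPC was at 0.03 (SE 0.03, adjusted p = 0.440) and turned to -0.0890 with DESeq2 size factors and -0.12 with total gene counts. ANK1 was at -0.04 (SE 0.02, adjusted p = 0.144) and was called lower under 6 alternatives, among them total gene counts (-0.19, adjusted p = 8.26e-09), DESeq2 size factors (-0.16, adjusted p = 1.31e-06) and a fit of only these 2 groups (-0.11, adjusted p = 0.000807). Total gene counts moved the median of all genes by -0.15 in this comparison and DESeq2 size factors moved it by -0.12, and with either scaling 1 of the 8 genes was called higher and 5 lower. Of all calls 51.4% were higher, 39.5% with total gene counts.

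The effect of the hairpin was then set between the genotypes, as the change in KO less the change in WT, which rests on the labels of the KO pair. This interaction called 7 of the 8 genes, 6 with a higher value in KO and EPB41 with a lower one, against 49.4% of all genes tested (23.9% higher and 25.5% lower) and 76.5% of those with a mean of at least 5 CPM (48.3% higher and 28.1% lower). The counts of the 8 genes were 6 and 1 with both other scalings too, and their median was 0.97, against -0.19 over all genes. SPTB had the largest value at 2.06 (SE 0.05, adjusted p = 3.52e-26), followed by RHAG at 1.22 (SE 0.05), GYPE at 1.19 (SE 0.07), GYPB at 1.06 (SE 0.12), ANK1 at 0.88 (SE 0.03) and GYPC at 0.29 (SE 0.05, adjusted p = 3.69e-06). EPB41 was at -0.51 (SE 0.03, adjusted p = 4.08e-16). SLC4A1 was at 0.09 (SE 0.36, adjusted p = 0.872), with an interval of -0.62 to 0.80. MBD6 itself had an interaction of 0.75 (SE 0.11), and its part in these values was not tested.

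A list of 41 other red-cell membrane genes gave 39 tested genes, of which 7 were called higher and 20 lower in KO against WT with shControl, 5 and 24 with shMBD6 in WT, 15 and 7 with shMBD6 in KO, and 15 and 12 in KO against WT with shMBD6. Their medians were -0.20, -0.27, 0.10 and 0.05, and the last turned to -0.10 with total gene counts and to -0.07 with DESeq2 size factors. With shMBD6 in WT the counts were 7 and 15 with DESeq2 size factors and 7 and 16 with total gene counts, and with shMBD6 in KO 21 and 5 with total gene counts. Over all genes of at least 5 CPM 52.7% were lower with shMBD6 in WT and 32.8% were lower in KO with shControl. Of the same genes 31.7% were higher with shMBD6 in KO, 60.0% in KO against WT with shMBD6 and 48.3% in the interaction. Some genes of the list lay under 5 CPM, and the shares over all genes tested are given with each comparison above. In the interaction 22 were higher and 5 lower, with a median of 0.28 (all genes -0.19). Of the 11 other skeleton genes in the list, 2 were higher and 6 lower in KO with shControl, 0 and 8 with shMBD6 in WT, 4 and 2 with shMBD6 in KO, and 6 and 0 in the interaction. The same shares of genes of at least 5 CPM stand beside these counts. DMTN, an actin-bundling protein of the skeleton, fell by 1.59 in KO with shControl (SE 0.09), ADD2, the erythroid beta-adducin, rose by 0.95 with shMBD6 in KO (SE 0.05), and KEL, the Kell blood-group protein, rose by 0.90 there (SE 0.08). TPM1, a tropomyosin, rose by 1.01 (SE 0.07) and SLC14A1, the urea transporter of the Kidd blood group, by 1.75 (SE 0.20) in KO against WT with shMBD6, where ADD2 rose by 1.28 (SE 0.05).

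Some surface proteins of the list moved against most of the 8 genes. SEMA7A, the John Milton Hagen blood-group protein, rose by 2.14 in KO with shControl (SE 0.09) and by 1.13 with shMBD6 in WT (SE 0.09). CD44, a hyaluronan receptor, rose by 0.84 (SE 0.15) and 2.05 (SE 0.15) in these comparisons, and fell by 1.37 with shMBD6 in KO (SE 0.15) and by 2.57 in KO against WT with shMBD6 (SE 0.16). BCAM, the Lutheran laminin receptor, rose by 2.66 (SE 0.46) and 1.98 (SE 0.45) from 0.299 CPM in WT shControl. ACHE, the acetylcholinesterase of the Cartwright blood group, fell by 1.12 with shMBD6 in WT (SE 0.18). Besides BCAM, low genes of the list that passed the test were ABCG2, ART4 and AQP3, each with under 1 CPM in at least 1 of the groups compared. CR1 was at 1.53 CPM in KO shMBD6. ABCG2 fell by 1.61 in KO with shControl (SE 0.44) and by 2.52 in KO against WT with shMBD6 (SE 0.44). ART4 fell by 1.54 with shMBD6 in WT (SE 0.57). AQP3 fell by 1.58 with shMBD6 in KO (SE 0.54) and by 2.16 in KO against WT with shMBD6 (SE 0.54). CR1 fell by 0.83 with shMBD6 in KO (SE 0.25). With shMBD6 in KO the groups compared overlapped for both AQP3 and CR1.

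Reads shared by 2 genes of 1 strand appear to have been set aside, since 98.3% of 3386 genes nested in a longer gene on its strand were at 0 in all 12 libraries, against 21.1% of 4507 genes nested on the opposite strand. The genes overlapping the 8 followed this split: 7 of 7 on the same strand were at 0, and 0 of 8 on the opposite strand. ABCB6 and XK of the list, and HBG2 and HBE1 among the globins, were not tested, and each is covered over 100% of its span by genes on its strand.

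Paralogues of the 8 genes that serve other tissues, 20 genes such as the non-erythroid spectrins, ankyrins and protein 4.1 relatives, were tested too. The test called 8 higher and 2 lower in KO with shControl, 12 and 4 with shMBD6 in WT, 4 and 8 with shMBD6 in KO, 6 and 9 in KO against WT with shMBD6, and 4 and 13 in the interaction, with medians of 0.35, 0.65, -0.31, -0.16 and -1.18. Of genes of at least 5 CPM 38.2% were higher in KO with shControl, near the 8 of 20 paralogues, and 19.5% were higher with shMBD6 in WT. Of the same genes 31.0% were lower with shMBD6 in KO, 16.5% in KO against WT with shMBD6 and 28.1% in the interaction. Some of the 20 paralogues lay under 5 CPM. Of all genes tested 23.5% were higher in KO with shControl and 17.7% were higher with shMBD6 in WT. Lower were 20.6% with shMBD6 in KO, 28.5% in KO against WT with shMBD6 and 25.5% in the interaction. ANK2, the ankyrin of heart and brain, rose from 5.91 CPM in WT shControl to 44.3 in KO shControl (2.91, SE 0.08) and to 25.3 in WT shMBD6 (2.10, SE 0.08), where ANK1 fell in both. EPB41L1 rose by 2.01 in KO against WT with shMBD6 (SE 0.08), where EPB41 fell. EPB41L3 fell by 1.21 in KO with shControl (SE 0.33, from 1.45 CPM), and SLC4A3 fell by 2.12 with shMBD6 in KO (SE 0.77, from 0.841 CPM). RHCG passed the test in KO against WT with shMBD6 at levels of 0.00433 and 0.209 CPM, too few reads for a fold. SPTBN5, SLC4A3, RHBG and RHCG averaged 0.547, 0.520, 0.0992 and 0.0944 CPM over the 12 libraries. The medians of the 20 paralogues include such low genes, and medians of the higher genes alone were not taken. The background level of olfactory receptor genes also differed between groups, and its part in these medians was not tested.

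**Figure D4:**
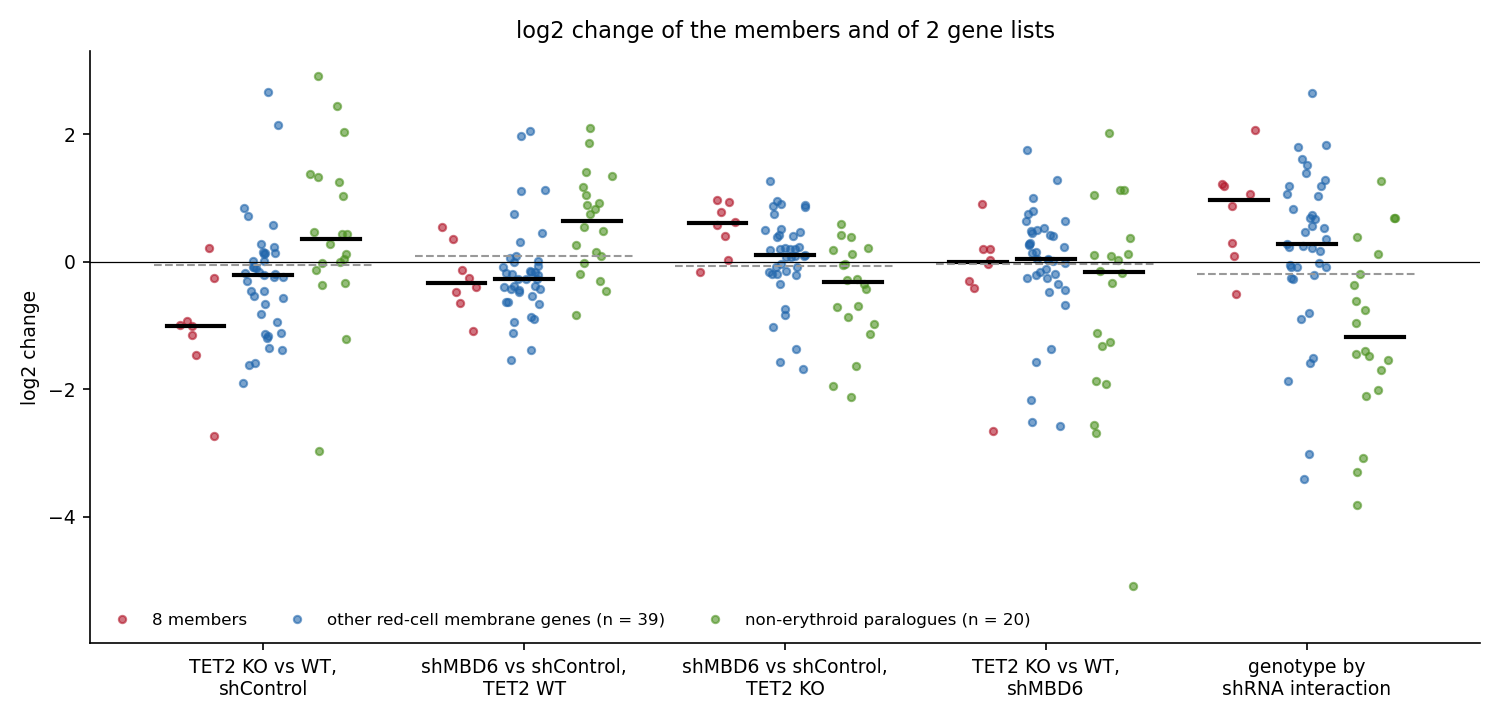
log2 change of the 8 genes (red), of 39 other red-cell membrane genes (blue) and of 20 non-erythroid paralogues (green) in the 5 comparisons; each point is a gene, black bars are medians, and dashed grey lines the median of all genes tested. The medians of the 8 genes and of all 20 paralogues, low genes included, lie on opposite sides of the grey line in all 5 comparisons. In KO against WT with shMBD6 they do so by a narrow margin (-0.0047 and -0.158, against -0.0309 over all genes).

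Of 11 erythroid transcription factors, 0 were called higher and 10 lower in KO with shControl, 1 and 8 with shMBD6 in WT, 6 and 2 with shMBD6 in KO, 7 and 3 in KO against WT with shMBD6, and 9 and 1 in the interaction. Of genes of at least 5 CPM 32.8% were lower in KO with shControl, 52.7% were lower with shMBD6 in WT, 31.7% were higher with shMBD6 in KO, 60.0% were higher in KO against WT with shMBD6, near the 7 of 11, and 48.3% were higher in the interaction. GATA1 averaged 54.2 CPM in WT shControl, 35.3 in WT shMBD6, 34.9 in KO shControl and 46.4 in KO shMBD6, and KLF1, the erythroid CACC-box-binding factor, 18.7, 9.79, 7.94 and 12.1 CPM. Both were highest in WT shControl and next in KO shMBD6, as RHAG, GYPE and SPTB were, and the other 2 groups overlapped. Not all of the 11 factors held this order. Some others did, while in some WT shMBD6 came second or KO shControl was highest. Among 8 tested globin genes 3 were lower in KO with shControl and 2 with shMBD6 in WT, and 2 were higher with shMBD6 in KO. In KO against WT with shMBD6 2 were higher and 2 lower, and 2 were higher in the interaction. HBG1 and HBD averaged 3.04 and 1.69 CPM over the 12 libraries. The other tested globins averaged 0.0759 (HBZ) to 0.558 (HBQ1) CPM, so that counts of calls say little about them. Of all genes tested 22.3% were lower in KO with shControl, 24.7% lower with shMBD6 in WT and 15.7% higher with shMBD6 in KO. In KO against WT with shMBD6 30.1% were higher and 28.5% lower, and 23.9% were higher in the interaction. With either other scaling 4 factors were higher and 3 lower, and 0 globins higher and 2 lower, in KO against WT with shMBD6.

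The place of the genes in the genome was also described. In KO against WT with shControl, genes of chromosome 8 with at least 5 CPM had a median log2 change of 0.42, against 0.01 over all such genes, and ANK1 on that chromosome fell by 0.92. The chromosomes of the other 7 genes had medians between -0.06 and 0.02, so that none of the 8 genes followed its chromosome there. Within 500 kb of SPTB, 4 of 9 genes of at least 1 CPM were higher and 1 was lower in this comparison (median 0.29). Within 500 kb of GYPB, 0 of 6 were higher and 4 lower (median -0.42).

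Across the 12 libraries the pattern most like that of each gene was sought among 9548 other protein-coding genes, by Pearson's r of log2 CPM. The 12 points share 4 groups, so that r describes the order of groups and their gaps. SPTB was closest to ZFPM2 (r = 1.00) and CAT (0.99), a GATA cofactor and catalase, RHAG to GADD45A (0.99), and ANK1 to SOX5 (0.99) and LSS (0.99). GYPE was closest to KALRN (0.99) and FGFR3 (0.98), GYPB to WNT5B (0.97) and VCL (0.96), GYPC to H3C10 (0.98) and PLK1 (0.97), SLC4A1 to PKD2 (0.98) and ABCA5 (0.97), and EPB41 to BTBD9 (0.99) and ADCY6 (0.98). Among the 8 genes r was highest for ANK1 with RHAG (0.97) and for GYPE with RHAG (0.93), and lowest for SPTB with EPB41 (-0.91).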

How the data were processed

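The authors deposited 1 table of raw read counts per library, with 58721 genes, made per the labels and the study's methods with Trimmomatic 0.39, HISAT2 2.2.1 and HTSeq 0.12.4 on hg38 from caRNA of fractionated cells, stranded and depleted of ribosomal RNA. The methods also name featureCounts, and the tables carry HTSeq's summary lines. Lines naming no gene held 28.4% to 31.5% of the records and were left out. No spike-in line (ERCC) stood in the tables (0 found), so the study's spike-in scaling was not used here and a shift shared by all genes cannot be seen. Positions and lengths came from GENCODE v44 (GRCh38), which matched 99.1% of the gene identifiers. Counts were tested with edgeR 4.0.16 in R 4.3.3 (TMM, filterByExpr with a minimum count of 10, robust quasi-likelihood test, 1 model of 12 libraries and 4 groups), with Benjamini-Hochberg adjustment over 26023 genes and a threshold of 0.05; SE is the log2 change divided by the square root of F, and intervals are 1.96 SE to either side. On simulated data of the first comparison, 48%, 52%, 86% and 98% of changes of 1.25, 1.5, 2 and 4-fold were recovered. Alternatives were other scalings and filters, DESeq2 1.42.0, a replicate block, and libraries left out. Replicates of a group differed by 5.10 to 13.1 chi-square units per degree of freedom, so that none was a copy.

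The 8 genes and the gene lists were chosen with earlier results of these data known. Apart from the 8, the text names the targeted genes, the 3 highest and 3 lowest called genes of the membrane list and the extreme called paralogues in each comparison, the 2 genes of most similar pattern, and GATA1 and KLF1, except for a few genes that are not reported here. The share called among genes of at least 5 CPM, the level of olfactory receptor genes and the count of nested genes were added after the data were seen. The mouse tables deposited with these were not used beyond 6 gene levels.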

Additional observations from a re-analysis of the deposited data

Results flagged for a closer look

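The effect of the hairpin differed between TET2 KO and TET2 WT by the interaction test for 7 of the 8 membrane genes, with the log2 change in KO less that in WT at 2.06 for SPTB, 1.22 for RHAG, 1.19 for GYPE, 1.06 for GYPB, 0.88 for ANK1, 0.29 for GYPC and -0.51 for EPB41. The targeted genes differed too, with 0.75 for MBD6 and -0.45 for TET2, and the caRNA level of MBD6 did not follow the labels of the KO libraries. Since 49.4% of all genes tested passed this test, a passed test sets no gene apart. Among the other membrane genes named in the report the values were 1.83 for SLC14A1, 1.80 for KEL, 1.61 for ACHE, 1.38 for ADD2, 0.28 for TPM1, -1.59 for CR1, -1.87 for SEMA7A, -3.01 for BCAM and -3.41 for CD44. Among the paralogues they were 0.68 for EPB41L1, -1.48 for EPB41L3, -3.08 for ANK2, -3.29 for SLC4A3 and -3.81 for SPTBN5. The cause of these differences was not tested.

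Groups of 3 libraries are too small to test a single library against the others. The mouse embryonic stem cell libraries, which no comparison above uses, held reads of 6 mouse genes of the same names above the 3 counts that a count of 0 allows. In siControl they were at 153 CPM for Epb41, 15.4 for Sptb, 10.7 for Ank1, 1.23 for Rhag, 0.974 for Gypc and 0.809 for Slc4a1.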

How the results depend on the processing

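Each of 40 log2 changes of the 8 genes was fitted again under the alternatives, which gave 752 values. Of these, 715 kept their direction and their side of the threshold, 19 newly passed it, 8 lost it and 10 changed sign. The sign changes touched a pair of values near 0 that were not called. GYPC in KO against WT with shMBD6 was at -0.0890 with DESeq2 size factors, -0.12 with total gene counts, -0.0273 without a filter, -0.0459 with a stricter filter, -0.0391 with only the groups compared and -0.0889 with DESeq2, and it was called in that direction with DESeq2 and both other scalings. The SLC4A1 interaction was at -0.0114 with DESeq2 size factors, -0.0133 with DESeq2 and between -0.40 and 0.40 with 1 library left out. The cause was not tested. The number of the 8 genes called stayed within 1.5 times the main number throughout. With 1 library left out it was 8, 6 to 7, 6 to 7, 6 and 7 in the order of the report. The replicate block left the counts at 8, 6, 6, 6 and 7 members and at 11875, 11146, 9579, 15340 and 12873 genes. Samples of the same number deviated from their groups with correlations of -0.02 to 0.02, so that the numbers did not pair them, and the block changed no call on the 8 genes. Scaling decided the split of all calls. Of those in KO against WT with shControl, 6127 were higher and 5794 lower with TMM, and 4523 and 8285 with total gene counts. For shMBD6 in WT the split was 4616 to 6431 with TMM and 5798 to 4715 with DESeq2 size factors, for shMBD6 in KO 4095 to 5370 and, with total gene counts, 6046 to 4047, and for KO against WT with shMBD6 7837 to 7422 and, with total gene counts, 5770 to 8836. On exon length ANK1, GYPC, RHAG and EPB41 took the first 4 places in that order. SLC4A1, with 49 counts in its lowest library, is the gene that depth limits most.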
